A study of Mus musculus with 6 samples.

Results

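The monocyte-attracting CC chemokines examined here are 8 genes, Ccl2, Ccl3, Ccl4, Ccl6, Ccl7, Ccl8, Ccl9 and Ccl12. They were chosen by name, and the deposited table held all 8 among its 12969 genes. Bulk RNA-seq covered infarcts of male mice of about 12 weeks, 4 days after permanent suture ligation of a coronary artery. The compared groups were 3 samples from mice of genotype IRF3-/-, called Irf3KO here, whose strain the labels leave out, and 3 samples from wild-type (WT) mice of strain C57BL/6. Every sample was infarct tissue, and non-infarcted tissue was not analysed here. The comparison asks which transcripts of the early infarct differ when Irf3, a transcription factor that switches on interferon and other antiviral genes, is missing.

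CC chemokines are small secreted proteins that bind G-protein-coupled receptors on leukocytes and draw the cells along a concentration gradient. After an infarct, inflammatory monocytes carrying the receptor Ccr2 enter the heart and become macrophages, and macrophages, fibroblasts and endothelial cells all make these chemokines. Ccl2, Ccl7 and Ccl12 are ligands of Ccr2 in the mouse. Ccl3, Ccl6 and Ccl9 are ligands of Ccr1, and Ccl4 is made by activated macrophages. Mouse Ccl8 acts mainly through Ccr8.

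The 8 genes lie in 2 runs on chromosome 11 in the RefSeq annotation of GRCm38.p6, used here only for the order of genes. Ccl2, Ccl7, Ccl12 and Ccl8 follow each other in the first, with Ccl11, which attracts eosinophils, standing between Ccl7 and Ccl12. Ccl9, Ccl6, Ccl3 and Ccl4 follow each other in the second, after Ccl5. In that annotation the span of Ccl4 overlaps that of Ccl3, and no source used here says whether the authors counted by strand, so reads from any overlap cannot be told apart.

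Upstream sequences are shown for Ccl12 and Ccl8, neighbours on the chromosome and the pair of members whose Irf3KO libraries all lay below all WT libraries. Each is the 250 bases before the start of the gene, from RefSeq on GRCm38.p6 (the submitters' processing notes name NCBIM37, mm9, for the reads), plus strand, 5′ to 3′. Capitals mark the TATA box letters TATAAA and an 8-base run, GGAAATCA, that stands at the same distance, 128 bases, before both starts. A run of this length is no mark of the pair, since each of the 10 pairs among the 5 members with such a sequence shared a run of 7 to 13 bases.
Ccl12, chr11:82101595-82101844: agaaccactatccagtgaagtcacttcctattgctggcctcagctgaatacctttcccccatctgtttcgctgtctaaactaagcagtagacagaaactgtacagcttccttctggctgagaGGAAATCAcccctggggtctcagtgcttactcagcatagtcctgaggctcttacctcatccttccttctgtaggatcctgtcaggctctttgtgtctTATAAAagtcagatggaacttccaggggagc
Ccl8, chr11:82114935-82115184: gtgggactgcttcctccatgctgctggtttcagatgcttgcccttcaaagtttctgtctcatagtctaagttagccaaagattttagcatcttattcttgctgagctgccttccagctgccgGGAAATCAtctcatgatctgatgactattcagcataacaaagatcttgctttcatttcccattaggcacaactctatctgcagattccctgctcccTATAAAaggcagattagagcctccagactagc

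The reference table gave such a sequence for 5 members, Ccl12, Ccl8, Ccl9, Ccl6 and Ccl3. Each was searched on both strands, and the share of the 32817 upstream sequences of the same length that hold each motif was counted beside it. The core of the interferon-stimulated response element, GAAANNGAAA, was in 0 of the 5 and in 2.97% of all sequences. The GAS element TTCNNNGAA, an element of interferon-gamma response genes, was in 0 of the 5 and in 7.01% of all. An NF-kB consensus was in 1 of the 5, on the minus strand of Ccl9, and in 3.9% of all. TATAAA was in 3 of the 5, Ccl12, Ccl8 and Ccl9, and in 12.4% of all, and no match overlapped another in Ccl12 or Ccl8, while in Ccl9 TATAAA matches on the 2 strands overlapped. These are matches of letters in one window and do not show what binds there.

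Values are RPKM, reads scaled to gene length and library depth. The steps between low values gave 14.8 to 61.9 M reads in genes per library. By this estimate Ccl12 rested on 125, 136 and 384 reads in Irf3KO replicates 1 to 3 and on 319, 283 and 219 reads in WT replicates 1 to 3. The smallest read number behind any member was 35, for Ccl3 in Irf3KO replicate 2, where counting error alone has an SD of 16.9%. Irf3 itself was at 7.94 ± 0.707 RPKM in Irf3KO and 13.1 ± 1.30 RPKM in WT tissue (SD, n = 3 each), and all Irf3KO libraries lay below all WT libraries, but reads from the gene remained. Its log2 fold change was -0.65 ± 0.18 (SE; limma adjusted p = 0.344), so Irf3 did not pass the test across genes either. Irf3KO replicate 2 stood apart from the other libraries, with a mean correlation of 0.907 with them against 0.942 to 0.966 for the others. Its RPKM also summed to 666979 over all genes in the table, against 329552 to 410800 in the other libraries. The cause of this was not tested.

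The labelled infarct tissue held macrophage and heart muscle transcripts in every library. The 24 monocyte and macrophage markers in the table, of 25 symbols listed (2 of them name 1 gene), summed to 7772, 3667 and 6359 RPKM in Irf3KO replicates 1 to 3 and to 9187, 5113 and 4655 RPKM in WT replicates 1 to 3, and none of the 24 was at 0 in any library. By these sums Irf3KO replicate 2 was the lowest and WT replicate 1 the highest. Lyz2 alone gave 3826 RPKM of the sum in Irf3KO replicate 1 and 833 RPKM in Irf3KO replicate 2. The median of the markers relative to the WT mean was also lowest in Irf3KO replicate 2, at -1.16. The markers did not all agree, since Lgals3, C1qa and Coro1a were highest of the Irf3KO libraries in replicate 2. The sums of the 12 cardiomyocyte markers ran the other way at the ends, highest in Irf3KO replicate 2 (22860 RPKM) and lowest in WT replicate 1 (6428 RPKM). All 12 had a log2 fold change above 0, as did 5261 of the 12913 genes tested. Their median was 0.57, and none of the 12 was called. The 24 macrophage markers had a median log2 fold change of -0.34, with 18 below 0 and 6 above. Lowest among them were Ly6c2 and Plac8, which mark inflammatory monocytes, at -1.38 ± 0.32 and -1.31 ± 0.22 (SE; limma adjusted p = 0.203 and 0.0625). Both were further below 0 than any of the chemokines and had no overlap between groups. All Irf3KO libraries lay below all WT libraries for 3 of the 24, against 11.8% of all genes tested. The 10 fibroblast markers had a median log2 fold change of -0.48, with none called and 9 below 0, against 59.3% of all genes. Their sums did not overlap, at 4150, 3316 and 4587 RPKM in Irf3KO replicates 1 to 3 and 5579, 5832 and 5479 RPKM in WT replicates 1 to 3. The collagen genes Col3a1, Col1a1 and Col1a2 weighed most in these sums. Taken singly, 4 of the 10 had all Irf3KO libraries below all WT libraries, against 11.8% of all genes. How often sums of other genes stay apart was not counted. The part of these cell markers in the chemokine values was not tested. In bulk tissue fewer cells of a type and less RNA per cell cannot be told apart.

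All 8 chemokines had a lower mean in Irf3KO than in WT infarcts, and none passed the test across genes. The differences were uneven. Ccl12, Ccl8 and Ccl4 had log2 fold changes of -0.96, -1.03 and -0.85, while Ccl2 and Ccl6 were at -0.22 and -0.23. The test was limma on log2(RPKM + 1) over the 12913 genes averaging 1 RPKM or more, adjusted by Benjamini-Hochberg with a threshold of 0.05. It called 0 of the 8 members against 0.503% of all genes, and 3 of the 8 were lower in Irf3KO with an unadjusted p under 0.05, against 5.96% of all genes. The median log2 fold change of the 8 was -0.57, against -0.09 over all genes tested. A value below 0, which all 8 had, was found for 59.3% of all genes.

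**Figure D1:**
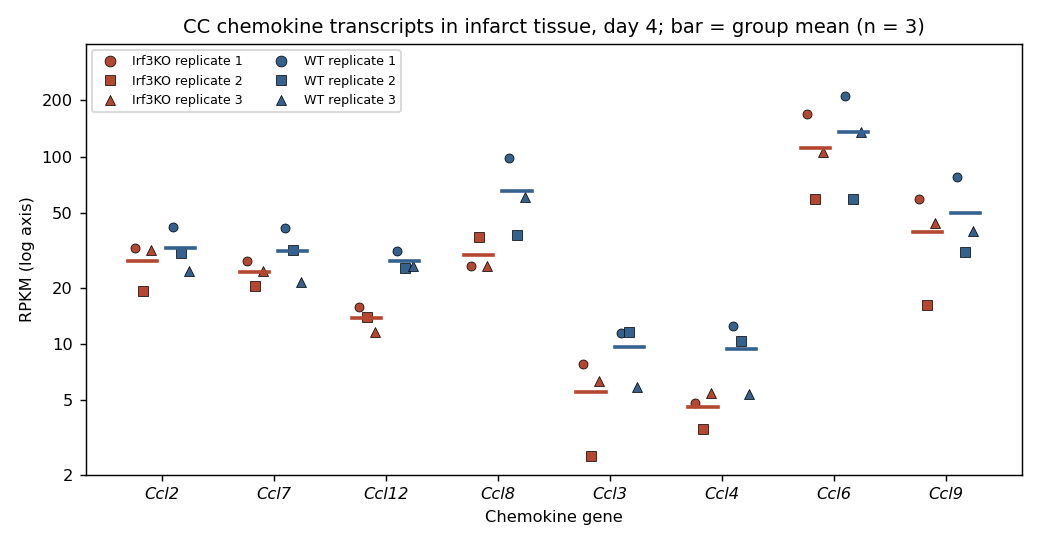
RPKM (log axis) of the 8 chemokine genes in each library, with Irf3KO in red left of WT in blue, symbols for replicates 1 to 3 and bars for group means (n = 3). The Irf3KO and WT points are apart for Ccl12 (15.73 RPKM at most against 25.35 RPKM at least) and, by a small gap, for Ccl8, and they overlap for the other 6.

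Ccl12 encodes a chemokine of the Ccr2 ligand group that acts on monocytes. It was at 15.73, 14 and 11.55 RPKM in Irf3KO replicates 1 to 3 and at 31.47, 25.35 and 25.94 RPKM in WT replicates 1 to 3. The groups did not overlap, and both were narrow: the highest library was 1.36 times the lowest in Irf3KO and 1.24 times in WT. The mean was 13.8 ± 2.10 RPKM in Irf3KO and 27.6 ± 3.38 RPKM in WT tissue (SD, n = 3 each), a ratio of 0.499. The log2 fold change was -0.96 ± 0.20 (SE; 95% interval -1.41 to -0.51; unadjusted p = 0.00112, limma adjusted p = 0.118), which placed the gene 121st by p among all genes tested. This was the smallest p of the 8. Without Irf3KO replicate 2 the value was -0.97 ± 0.18 (limma adjusted p = 0.092), and without WT replicate 1 it was -0.86 ± 0.20 (limma adjusted p = 0.346).

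Ccl8 lies next to Ccl12 on the chromosome and in the mouse is known for recruiting cells with Ccr8. Its level was 26.06, 37.43 and 26.1 RPKM in Irf3KO replicates 1 to 3 and 98.48, 38.22 and 61.13 RPKM in WT replicates 1 to 3. The groups stayed apart only by the step between 37.43 RPKM in Irf3KO replicate 2 and 38.22 RPKM in WT replicate 2. Ccl8 was the only member whose highest Irf3KO value came from replicate 2, the library with the lowest macrophage marker sum and the highest RPKM sum over all genes. Ccl8 is also the shortest member, at 511 bases, but Ccl12, at 537 bases, was not highest there. Ccl9, the longest at 3045 bases, was lowest there, as were members of other lengths. The part of gene length in these values was not tested. The log2 fold change of Ccl8, -1.03 ± 0.34 (SE; 95% interval -1.81 to -0.25; limma adjusted p = 0.488), was the largest in size of the 8. It was -1.20 ± 0.36 without Irf3KO replicate 2 and -0.70 ± 0.28 without WT replicate 1 (limma adjusted p = 0.385 and 0.653). Ccl12 and Ccl8 made 2 of 8 members with every Irf3KO library below every WT library, against 11.8% of all genes tested.

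Ccl2, the best-known chemokine for Ccr2+ monocytes, was at 32.55, 19.14 and 31.92 RPKM in Irf3KO replicates 1 to 3 and at 42.03, 30.65 and 24.6 RPKM in WT replicates 1 to 3. Here 2 Irf3KO libraries stood above 2 WT libraries. Its log2 fold change was -0.22 ± 0.28 (SE; limma adjusted p = 0.714), and the 95% interval of -0.86 to 0.43 reaches from nearly the estimate for Ccl12 to above 0. Without Irf3KO replicate 2 the value was 0.025. Ccl7, which binds Ccr2 and several other receptors, was at 27.59, 20.36 and 24.58 RPKM in Irf3KO replicates 1 to 3 and at 41.46, 31.65 and 21.52 RPKM in WT replicates 1 to 3. All the overlap came from WT replicate 3, which lay below 2 Irf3KO libraries. Ccl7 had a log2 fold change of -0.33 ± 0.26 (SE; 95% interval -0.93 to 0.27; limma adjusted p = 0.58), which became -0.12 without WT replicate 1, -0.22 without Irf3KO replicate 2 and -0.57 without WT replicate 3.

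Ccl4, a chemokine close to Ccl3, was at 4.81, 3.52 and 5.46 RPKM in Irf3KO replicates 1 to 3 and at 12.52, 10.42 and 5.4 RPKM in WT replicates 1 to 3. Of the WT libraries only replicate 3 lay inside the Irf3KO range, just under its top. The log2 fold change of Ccl4 was -0.85 ± 0.30 (SE; 95% interval -1.54 to -0.16; limma adjusted p = 0.539). Leaving out WT replicate 3 gave -1.17 ± 0.25 (limma adjusted p = 0.311), and leaving out WT replicate 1 gave -0.63 ± 0.31 (limma adjusted p = 0.653). Ccl3, a ligand of Ccr1, was at 7.77, 2.53 and 6.32 RPKM in Irf3KO replicates 1 to 3 and at 11.41, 11.62 and 5.9 RPKM in WT replicates 1 to 3. Again WT replicate 3 was the one WT library within the Irf3KO range. The log2 fold change of Ccl3 was -0.75 ± 0.38 (SE; 95% interval -1.63 to 0.13; limma adjusted p = 0.556), and without Irf3KO replicate 2 it was -0.36 ± 0.28 (limma adjusted p = 0.83).

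Ccl6 and Ccl9, rodent chemokines that signal through Ccr1 and are abundant in myeloid cells, had the largest SE of the log2 fold change among the 8. Ccl6 had the highest RPKM of the 8 in all 6 libraries, at 168.93, 59.63 and 105.67 RPKM in Irf3KO replicates 1 to 3 and at 212.15, 59.6 and 134.96 RPKM in WT replicates 1 to 3. Each group thus held a library near 60 RPKM, and within WT tissue alone the highest was 3.56 times the lowest. Its log2 fold change was -0.23 ± 0.51 (SE; 95% interval -1.40 to 0.95; limma adjusted p = 0.837), and it was 0.16 without Irf3KO replicate 2 and 0.19 without WT replicate 1. Ccl9 was at 59.27, 16.12 and 44.09 RPKM in Irf3KO replicates 1 to 3 and at 78, 31.06 and 40.24 RPKM in WT replicates 1 to 3. Irf3KO replicate 2 had the lowest value, and the other 2 Irf3KO libraries were above 2 of the WT libraries. For Ccl9 the log2 fold change was -0.39 ± 0.50 (SE; 95% interval -1.53 to 0.75; limma adjusted p = 0.711), against 0.15 without Irf3KO replicate 2. With that library left out, 5 of the 8 members had a value below 0, the median of the 8 was -0.29, and 2 had an unadjusted p under 0.05. The shares of all genes without that library were not counted. With all 6 libraries 59.3% of all genes were below 0, and 5.96% were lower with an unadjusted p under 0.05.

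The order of levels was partly stable across libraries. Ccl6 came first everywhere, Ccl3 and Ccl4 took the last places in all 6 libraries, and their means of 7.59 and 7.02 RPKM over the 6 libraries did not differ beyond the spread between libraries. Ccl8 (47.9 RPKM) and Ccl9 (44.8 RPKM) came next below Ccl6 by the mean, followed by Ccl2 (30.1 RPKM), Ccl7 (27.9 RPKM) and Ccl12 (20.7 RPKM). Ccl8 took the second place in 3 of 3 WT libraries and a place between 2 and 5 in the Irf3KO libraries. As a share of the summed RPKM of the 8 genes, Ccl8 was 7.60%, 21.7% and 10.2% in Irf3KO replicates 1 to 3 and 18.7%, 16.0% and 19.1% in WT replicates 1 to 3. By position, the genes Ccl2, Ccl7, Ccl12 and Ccl8 summed to 101.9, 90.9 and 94.2 RPKM in Irf3KO replicates 1 to 3 and to 213.4, 125.9 and 133.2 RPKM in WT replicates 1 to 3, so the sums did not overlap. That separation needed Ccl8, since without it the sum in Irf3KO replicate 1 was above that in WT replicate 3. How often such sums stay apart among other genes was not counted. The sums of Ccl9, Ccl6, Ccl3 and Ccl4 overlapped, at 240.8, 81.8 and 161.5 RPKM in Irf3KO and 314.1, 112.7 and 186.5 RPKM in WT tissue.

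Because macrophage markers differed between libraries, each member was also read relative to the median log2(RPKM + 1) of the 24 markers in the same library. This median level hardly differed between groups, although the median log2 fold change of the 24 markers was -0.34. It left the group differences nearly as they were, as for Ccl8 at -1.04 with it and -1.03 without it. A group difference in macrophage markers was thus not taken out. With 3 against 3 a two-sided exact permutation test cannot go below p = 0.1. On this scale Ccl3 and Ccl4 no longer overlapped between groups, although they overlapped again when the mean of the markers replaced their median. Ccl3 stood at -3.39, -3.79 and -3.48 in Irf3KO replicates 1 to 3 and at -3.10, -2.30 and -2.98 in WT replicates 1 to 3, a difference of -0.76 (exact permutation p = 0.1; 0.32 adjusted over the 8). Ccl4 stood at -3.98, -3.43 and -3.67 in Irf3KO replicates 1 to 3 and at -2.98, -2.44 and -3.09 in WT replicates 1 to 3, a difference of -0.86 with the same p-values. These were 2 of 8 members with all Irf3KO libraries below all WT libraries, against 5.42% of all genes put on the same scale.

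Ccl12 and Ccl8 overlapped on this scale, Ccl12 so narrowly that a pseudocount of 0.1 set its groups apart (difference -1.01, exact permutation p = 0.1). For Ccl12 the values were -2.45, -1.70 and -2.71 in Irf3KO replicates 1 to 3 and -1.71, -1.23 and -1.02 in WT replicates 1 to 3, so that Irf3KO replicate 2 and WT replicate 1 were nearly level. The difference was -0.97 (exact permutation p = 0.2; 0.32 adjusted over the 8). For Ccl8 it was -1.04 (exact permutation p = 0.2), with Irf3KO replicate 2 at -0.34 and the other 2 Irf3KO libraries at -1.76 and -1.60. Ccl2, Ccl7, Ccl6 and Ccl9 had differences of -0.23, -0.34, -0.23 and -0.40 (exact permutation p = 0.2, 0.3, 0.6 and 0.3). With the mean of the markers in place of their median, Ccl2, Ccl7 and Ccl6 turned to 0.16, 0.042 and 0.15, and Ccl3, Ccl4, Ccl12 and Ccl8 came to -0.38, -0.47, -0.58 and -0.66 (exact permutation p = 0.3, 0.2, 0.2 and 0.3).

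**Figure D2:**
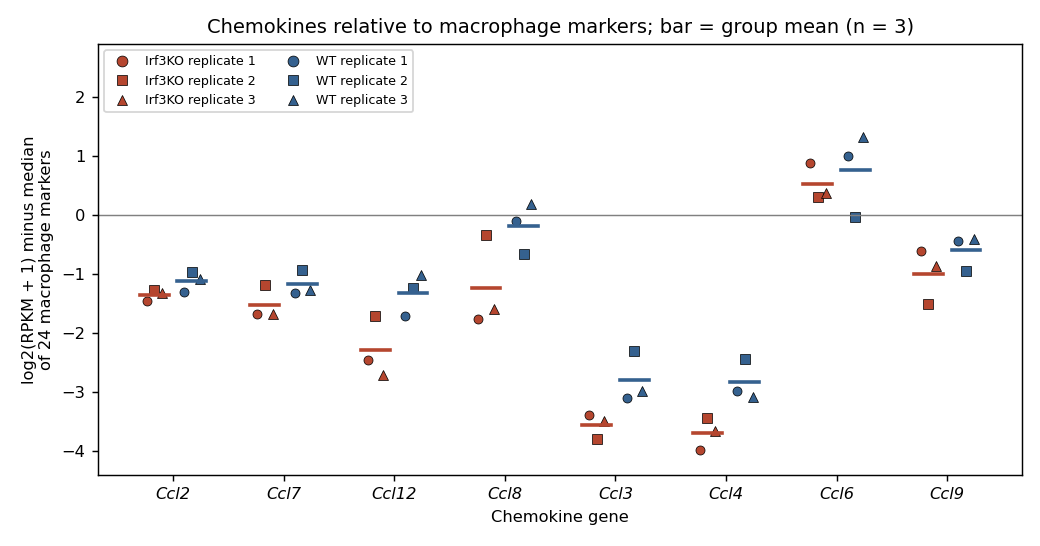
Level of each chemokine as log2(RPKM + 1) minus the median of 24 macrophage markers in the same library, with Irf3KO left of WT and bars for group means (n = 3). For Ccl3 and Ccl4 all Irf3KO points lie below all WT points (not so with the mean of the markers), and for Ccl12 Irf3KO replicate 2 (-1.70) lies level with WT replicate 1 (-1.71).

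Ratios of RPKM between members within a library do not depend on a library's scaling. The differences, tests and counts of separated pairs below use log2(RPKM + 1). There the added 1 leaves some dependence, most for low genes such as Ccl3 and Ccl4. Ccl12 over Ccl2 was 0.483, 0.732 and 0.362 in Irf3KO replicates 1 to 3 and 0.749, 0.827 and 1.05 in WT replicates 1 to 3. The groups were apart, narrowly between Irf3KO replicate 2 and WT replicate 1. Ccl12 over Ccl7 was 0.570, 0.688 and 0.470 in Irf3KO and 0.759, 0.801 and 1.21 in WT tissue, apart as well. The difference in log2 ratio, taken on log2(RPKM + 1), was -0.74 against Ccl2 and -0.62 against Ccl7 (exact permutation p = 0.1 for each; 0.56 adjusted over the 28 pairs). Ccl4 against Ccl2, Ccl4 against Ccl7 and Ccl3 against Ccl2 were the other pairs whose groups did not overlap, with differences of -0.63, -0.51 and -0.54. That made 5 of 28 pairs, or 17.9%, against 20.9% of all pairs of genes tested, so separations of this kind were no more frequent among the chemokines than elsewhere. Ccl12 over its neighbour Ccl8 overlapped between groups, with a difference of 0.078 (exact permutation p = 0.9), as did Ccl7 over Ccl2 with -0.12 (exact permutation p = 0.5).

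**Figure D3:**
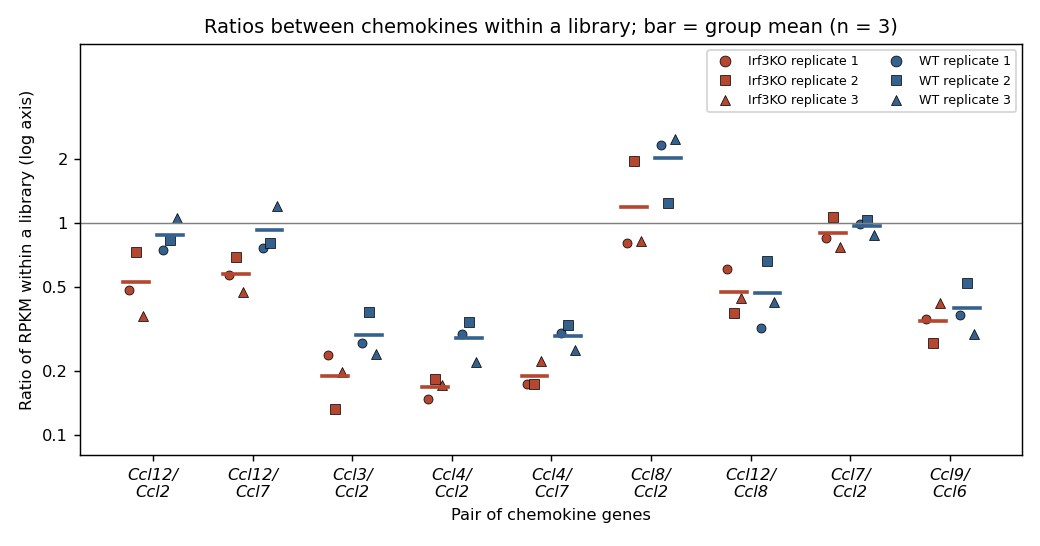
Ratio of RPKM (log axis) for 9 pairs of chemokine genes within each library, with Irf3KO left of WT and bars for group means (n = 3). Groups do not overlap in the first 5 pairs and overlap in the last 4, where Ccl7 over Ccl2 stays near 1 in every library (0.77 to 1.06 in Irf3KO and 0.875 to 1.03 in WT).

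Likeness of profiles was measured as the root mean square difference of log2(RPKM + 1) over the 6 libraries, each gene centred on its own mean, and smaller means more alike. It is a description over 6 libraries that share their macrophage content and scaling. Ccl6 and Ccl9 were close to each other at 0.30, Ccl9 being the 9th nearest of all genes to Ccl6 and Ccl6 the 124th nearest to Ccl9. Nearest to Ccl9 were Bst1 (0.135), Itgam (0.141) and Itgb2 (0.147), of which Itgam and Itgb2 encode the 2 chains of a myeloid integrin. Bst1 (0.224) was also near Ccl6, just behind 2010001K21Rik (0.191) and 1810033B17Rik (0.213).

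The Ccr2 ligands did not share one profile. Ccl2 and Ccl7 lay 0.161 apart, yet Ccl7 was only the 563rd nearest gene to Ccl2 and Ccl2 the 163rd nearest to Ccl7, while Ccl12 lay 0.486 from Ccl2, 0.401 from Ccl7 and 0.362 from Ccl8. Nearest to Ccl12 were Megf6 (0.120), Apol9a (0.150) and H2-Q4 (0.172), the last a class I histocompatibility gene of a family with many similar copies. Nearest to Ccl8 were Krt14 (0.224), Ccl5 (0.252) and Sbsn (0.258), of which Krt14 and Sbsn are known from epithelia. The 8 mesothelial markers summed to 77.0, 31.8 and 48.5 RPKM in Irf3KO replicates 1 to 3 and to 197.5, 57.4 and 114.3 RPKM in WT replicates 1 to 3. The order of WT libraries was that of Ccl8, but the order of Irf3KO libraries was not. Irf3KO replicate 2 had the lowest mesothelial sum of that group and its highest Ccl8 value (37.43 RPKM). All 8 mesothelial markers had a log2 fold change below 0, as did 59.3% of all genes, with a median of -0.91 against -0.57 for the 8 chemokines. None was called, and 4 of the 8 had an unadjusted limma p under 0.05, against 5.96% of all genes lower in Irf3KO by that measure. The part of these markers in the Ccl8 values was not tested. Ccl12 was the 22nd nearest of all genes to Ccl8, while Ccl8 was the 548th nearest to Ccl12. Nearest to Ccl2 were Sncaip (0.038), Fgd3 (0.043) and Ifnar2 (0.047), the last a chain of the type I interferon receptor. Nearest to Ccl7 were Coro2a (0.039) and Csf2ra (0.050), the second a chain of the GM-CSF receptor. Ccl3 was nearest to Pdia6, Pdia3 and Pdia4 (0.099, 0.120 and 0.123), enzymes of protein folding in the endoplasmic reticulum, and Ccl4 to Esm1, P4ha3 and Scd2 (0.121, 0.144 and 0.146).

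The receptors of these chemokines were read from the same fit. Of 12 CC receptor genes listed 5 were in the table, and 0 of the 5 passed. Ccr2, the receptor of inflammatory monocytes, was at 27.55, 9.86 and 15.79 RPKM in Irf3KO replicates 1 to 3 and at 30.31, 25.78 and 15.24 RPKM in WT replicates 1 to 3, with overlap through WT replicate 3. Ccr2 had a log2 fold change of -0.46 ± 0.38 (SE; limma adjusted p = 0.588). Ccr1, the receptor of Ccl3, Ccl6 and Ccl9, was at 13.8 ± 5.56 RPKM in Irf3KO and 17.2 ± 3.58 RPKM in WT tissue (SD, n = 3 each), a value of -0.35 ± 0.30 (limma adjusted p = 0.6). Both were lowest in Irf3KO replicate 2 and highest in WT replicate 1, the libraries with the lowest and highest sums of macrophage markers. The part of these markers in the receptor values was not tested. Ccr7, which guides dendritic and T cells to lymph nodes, was at -0.20 ± 0.21 and Ccrl2, which binds chemerin without signalling, at 0.33 ± 0.26 (limma adjusted p = 0.657 and 0.582). Ccr3 and Ccr8 are not analysed here.

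Scavenging receptors bind chemokines and remove or store them without classical signalling. The table held 4, of which 0 passed, and all 4 had values below 0, as did 59.3% of all genes tested. All Irf3KO libraries lay below all WT libraries for 2 of the 4, both at low RPKM, against 11.8% of all genes. Darc (now Ackr1), which binds CC chemokines on venules and red cells, was at 1.28, 0.76 and 1.21 RPKM in Irf3KO replicates 1 to 3 and at 2.06, 1.83 and 1.76 RPKM in WT replicates 1 to 3. Its groups did not overlap, and its log2 fold change was -0.48 ± 0.17 (SE; limma adjusted p = 0.551). Ccrl1 (now Ackr4), a scavenger of homeostatic CC chemokines, did not overlap either, at 2.17, 1.07 and 2.41 RPKM in Irf3KO and 2.61, 3.13 and 4.1 RPKM in WT tissue (-0.59 ± 0.24, limma adjusted p = 0.556). Ccbp2 (now Ackr2), which degrades inflammatory CC chemokines such as Ccl2, was at 1.29 ± 0.257 RPKM in Irf3KO and 1.33 ± 0.246 RPKM in WT tissue (SD, n = 3 each), a value of -0.028 ± 0.17 (limma adjusted p = 0.94). Cxcr7 (now Ackr3), a scavenger of Cxcl12, was at -0.27 ± 0.18 (limma adjusted p = 0.563).

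Of 16 other CC chemokines listed 3 were in the table, and 0 of 3 passed. Ccl5, a chemokine of T cells and monocytes, was at 2.11, 1.44 and 1.35 RPKM in Irf3KO replicates 1 to 3 and at 7.06, 2.56 and 4.17 RPKM in WT replicates 1 to 3. It had a log2 fold change of -1.02 ± 0.30 (SE; limma adjusted p = 0.404). Its groups did not overlap, the only such case of the 3, against 11.8% of all genes. WT replicate 1 was its highest library and WT replicate 2 its lowest WT library, as for Ccl8. Ccl17, a ligand of Ccr4, was at 0.57 ± 0.29 and Ccl24, an eosinophil chemokine, at -0.55 ± 0.44 (limma adjusted p = 0.556 and 0.58). Of 12 other genes for monocyte attraction and growth in the table, none passed by limma and 0 had an unadjusted p under 0.05, and their median log2 fold change was 0.032. Csf2ra, Mif and Cxcr4, the receptor of Cxcl12, had the smallest p of that list, at -0.39 ± 0.25, 0.48 ± 0.34 and -0.53 ± 0.40 (limma adjusted p = 0.556, 0.565 and 0.571).

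**Figure D4:**
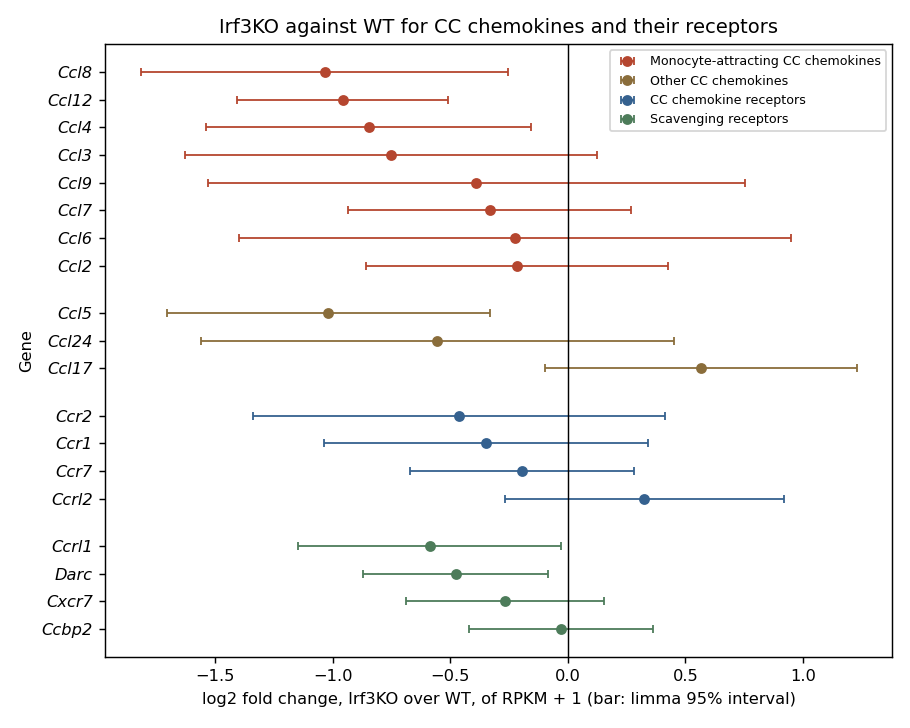
Log2 fold change of RPKM + 1, Irf3KO over WT, with limma 95% intervals for the 8 monocyte-attracting chemokines, 3 other CC chemokines, 4 CC receptors and 4 scavenging receptors. All 8 monocyte-attracting chemokines lie below 0, and the intervals of Ccl8, Ccl12 and Ccl4 do not reach it before adjustment for the number of genes.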

How the data were processed

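The deposited values are RPKM, which the authors rounded to 2 decimals, beside the length of each gene. Named in the submitters' processing notes are STAR 2.3.0, HTSeq 0.6.0, SAMtools 0.1.18.0, Picard 1.100 and edgeR 3.8.6. What each did, with which settings, and how genes were filtered is not stated, and this decides how reads shared by similar or overlapping genes were counted. In 5 lines part of a gene name stood in the first value cell and was put back.

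Library depth came from values under 15 reads, which lie 1 read apart once multiplied by length; 100% of the 50 to 219 values used per library were within 0.2 reads of a whole number. RPKM is not a count, so limma 3.58.1 (R 4.3.3; two-sided, with a trended eBayes prior) was fitted to log2(RPKM + 1) of all genes averaging 1 RPKM or more. Fold changes are on that scale, which understates those of low genes. The depth estimate, the fit and the likeness search were tested on simulated data, and the other computations were not. The labels do not say how the 3 samples per group were obtained beyond genotype and number, so p-values reflect only the spread among them, which may be technical.

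The genes named are the 8 members, their receptors, the 3 genes of each other chemokine list with the smallest p, Irf3, and the 3 genes most like each member; a few of these are not reported here. Members and lists were chosen with earlier results of these data known. Alternatives were other pseudocounts, filters, scaling, weights, a replicate block and leaving out each library.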

Additional observations from a re-analysis of the deposited data

How the results depend on the processing

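The count of members called was 0 in the fit reported and under 13 of 14 alternatives. With array weights, which put 6.36 on Irf3KO replicate 3 and 0.103 on Irf3KO replicate 2, it was 4: Ccl12, Ccl4, Ccl8 and Ccl3. Of all genes, 65 were called as reported, 34 with a mean of at least 5 RPKM, 2960 with array weights, and 21 to 97 with a library left out. The labels do not say whether the number shared by an Irf3KO and a WT library pairs them. Deviations from the group means correlated at 0.129, -0.098 and -0.102 for libraries of the same number. For libraries of other numbers they correlated at -0.212 to 0.190. With 3 libraries per group these values cannot decide whether the libraries are paired. With the replicate block 250 genes and 0 members were called. Ccl12, Ccl8, Ccl4, Ccl3 and Ccl7 stayed below 0 in all 14 alternatives, Ccl12 between -1.05 and -0.84 (limma adjusted p 2.05e-04 to 0.536). Values turned above 0 with array weights for Ccl2 (0.065), Ccl6 (0.59) and Ccl9 (0.38), without Irf3KO replicate 2 for Ccl2 (0.025), Ccl6 (0.16) and Ccl9 (0.15), and without WT replicate 1 for Ccl6 (0.19). Relative to macrophage markers, using their mean turned Ccl2 (0.16), Ccl6 (0.15) and Ccl7 (0.042), and leaving out WT replicate 3 turned Ccl6 (0.044). The mean also brought Ccl3 to -0.38 and Ccl4 to -0.47, and their groups then overlapped. With 1 library left out at a time, Ccl2 ranged from -0.39 to 0.025, Ccl6 from -0.72 to 0.19 and Ccl9 from -0.76 to 0.15, and Ccl6 relative to macrophage markers from -0.63 to 0.044. The cause of these turns was not tested. Dividing by median-of-ratios factors moved the median log2 fold change of all genes to 0.020, against -0.09 as reported, and Ccl12 to -0.84. The table gives no counts for all genes, so no test on counts was run.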
